A study of Mus musculus with 2 samples.

Results

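The genes described here are 4 ligands of the epidermal growth factor (EGF) family, Areg, Hbegf, Tgfa and Ereg, and their shared receptor gene, Egfr. They were chosen by name and not by their levels, and they are 5 of the 31053 mouse genes in the count table. The cells were T cells sorted from melanomas of mice, 9 days after 100000 tumor cells of the line B16 or B16–IL-33 were placed in the skin. B16 is a mouse melanoma cell line, and B16–IL-33 is an engineered B16 line that overexpresses the secreted form of IL-33. The mice of the study had the C57BL/6 background. The sources used here give no sex, age or number for the mice of this pool. Cells from both tumors were labelled with antibodies that carry a DNA tag (a hashtag), 2 tags for each tumor, and pooled before loading, so that the data are 1 gene expression library with 1 hashtag library and 1 T cell receptor (TCR) table. One pool is 1 sample. The values below therefore compare cells within that pool, no test across animals was possible, and each interval is a 95% interval that covers counting error only.

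EGF family ligands are made as membrane-anchored precursors that proteases cut to release the active growth factor, which binds receptor tyrosine kinases of the ErbB family. Amphiregulin (Areg) is known as a tissue repair factor of Treg cells, type 2 innate lymphoid cells, mast cells and basophils, and it acts through EGFR. Heparin-binding EGF-like growth factor (Hbegf) is a product of activated macrophages, transforming growth factor α (Tgfa) is made by many epithelial cells, and epiregulin (Ereg) is made by myeloid and epithelial cells. EGFR is carried mainly by epithelial cells and fibroblasts, which the sort was not made to collect.

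Areg (ENSMUSG00000029378) lies on the plus strand of chromosome 5 at chr5:91139599-91148432 in GENCODE vM21 (GRCm38), in a row of 4 EGF family ligand genes that spans 375531 bp. Epgn and Ereg (ENSMUSG00000029377, chr5:91074622-91093646) stand before it and Btc after it. Of the 11865 UMIs (unique molecular identifiers, each counted as 1 RNA molecule) that these 4 genes had in the kept cells, 11858 were of Areg, 5 of Btc and 1 each of Ereg and Epgn. The nearest neighbour, Ereg, ends 45952 bp from the start of Areg, and it was at the limit of detection here. Tgfa (ENSMUSG00000029999) lies on chromosome 6 at chr6:86195223-86275719, and Egfr (ENSMUSG00000020122) on chromosome 11 at chr11:16752203-16918158. Because Areg was the family member with most of the signal, its proximal promoter is shown, as the 250 bases before the annotated start (chr5:91139349-91139598, plus strand, GRCm38.p6, from RefSeq). Capitals mark a cyclic AMP response element, TGACGTCA, that begins 61 bases before the start, and a TATA box, TATAAA, that begins 31 bases before it.
Areg: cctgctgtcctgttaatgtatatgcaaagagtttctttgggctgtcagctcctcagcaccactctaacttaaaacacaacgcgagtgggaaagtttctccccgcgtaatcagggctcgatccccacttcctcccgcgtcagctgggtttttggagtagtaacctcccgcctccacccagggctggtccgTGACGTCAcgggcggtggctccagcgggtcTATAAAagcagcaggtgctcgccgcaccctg
Both strands were searched, and these motifs do not overlap. TGACGTCA was present in 1.55% of 32851 promoter windows of this length and TATAAA in 12.4%. The AP-1 motif TGAGTCA (4.46% of windows) was not present in these letters of the Areg window. The windows of Tgfa, Egfr and Btc held none of these 3 motifs, and that of Epgn held TATAAA alone. A match is a description of letters and says nothing about binding in these cells.

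Of 14035 deposited barcodes, 9844 had at least 200 detected genes and less than 5% mitochondrial UMIs and were kept. They held 40091218 mouse UMIs, with a median of 2639 and a range of 254 to 78650 UMIs per cell. Each cell was placed by its own UMIs of a few lineage genes. Treg cells had Foxp3 and no Cd8a or Cd8b1, conventional CD4+ T (Tconv) cells had Cd4 without Foxp3 or the CD8 genes, CD8+ T cells had more CD8 than Cd4 and Foxp3 UMIs, NKT cells had Zbtb16, myeloid cells had Csf1r without Cd3e, and melanoma cells had at least 20 UMIs of Pmel and Dct. These gates held 2833 Treg cells, 1813 Tconv cells, 1538 CD8+ T cells, 89 NKT cells, 183 myeloid cells and 94 melanoma cells. Median depth was 2974, 2543, 4189, 3095, 6440 and 43351 UMIs, in that order. Another 3366 cells (34.2%) entered no gate, and 72 cells entered more than 1, of which 26 were both NKT and Tconv.

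The labels of the gates were checked on lists of marker genes. These lists include the genes that set the gates (Foxp3, Cd4, Zbtb16, Csf1r, Pmel and Dct), which the gates themselves place high. Only the other genes of a list are thus a check. All 6 Treg markers, all 8 myeloid markers and all 8 melanoma markers had their highest level in the gate of that name. Of 5 NKT markers, 2 were highest in the NKT gate, and 20 of its 89 cells had an invariant NKT alpha chain, so that this group is better described as Zbtb16-positive T cells. Of 4 Tconv markers, 3 were highest in Tconv cells. Of 7 mast cell and basophil markers, 5 had 0 UMIs in all kept cells, and of 7 fibroblast markers the summed level was 28.2 CPM (the UMIs of a gene scaled to the same total in each group) in myeloid cells and at most 2.35 CPM in the other gates. The keratinocyte genes Krt5 and Krt14 had 0 UMIs, while Krt10 had 206 UMIs in 2.02% of all kept cells. The 4 genes of type 2 innate lymphoid cells, another source of Areg, summed to 43.2 CPM in Tconv cells and 8.24 CPM in Treg cells, and most of it was Il13, which helper T cells also make and which lay in 0.938% of Tconv cells. Of 183 myeloid cells, 54 held UMIs of a CD3 gene, and so did 32 of 94 melanoma cells.

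Areg was at its highest in Treg cells. Summed over cells, Areg stood at 660.1 CPM in Treg cells (interval 645 to 675, from 7368 UMIs), 209 CPM in Tconv cells (197 to 221), 70.9 CPM in CD8+ T cells (65.6 to 76.4), 23.0 CPM in NKT cells (10.5 to 43.6), 14.97 CPM in myeloid cells (9.69 to 22.1) and 0.521 CPM in melanoma cells (0.0631 to 1.88). Treg cells were thus highest and melanoma cells lowest. Among neighbours in this order, NKT and myeloid cells alone had a ratio whose interval held 1 (1.55, 0.639 to 3.44). Treg cells held 62.1% of all Areg UMIs, cells of no gate 21.8%, Tconv cells 10.1% and CD8+ T cells 5.73%.

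The ratio of Areg between Treg and Tconv cells was 3.16 (2.97 to 3.36). Of 9922 genes with at least 50 UMIs in these gates, 0.282% were at least 4-fold higher in Treg cells and 4.26% were at least 2-fold higher. Areg passed the 2-fold level and not the 4-fold level, and its ratio was number 71 of the 9922. Hbegf, the other member with enough UMIs, had a ratio of 1.25 (0.773 to 2.08). The ratio of Areg between Treg and CD8+ T cells was 9.31 (8.61 to 10.1), and 1.91% of 10187 genes were at least 4-fold higher there. NKT cells had 0.126 times the Areg of Tconv cells (0.0507 to 0.261), and 4.28% of 7686 genes were at least 4-fold lower in NKT cells, where 0.247% were at least 4-fold higher. Cells in both gates were left out of that ratio, and its NKT side rests on 7 UMIs in 63 cells.

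**Figure D1:**
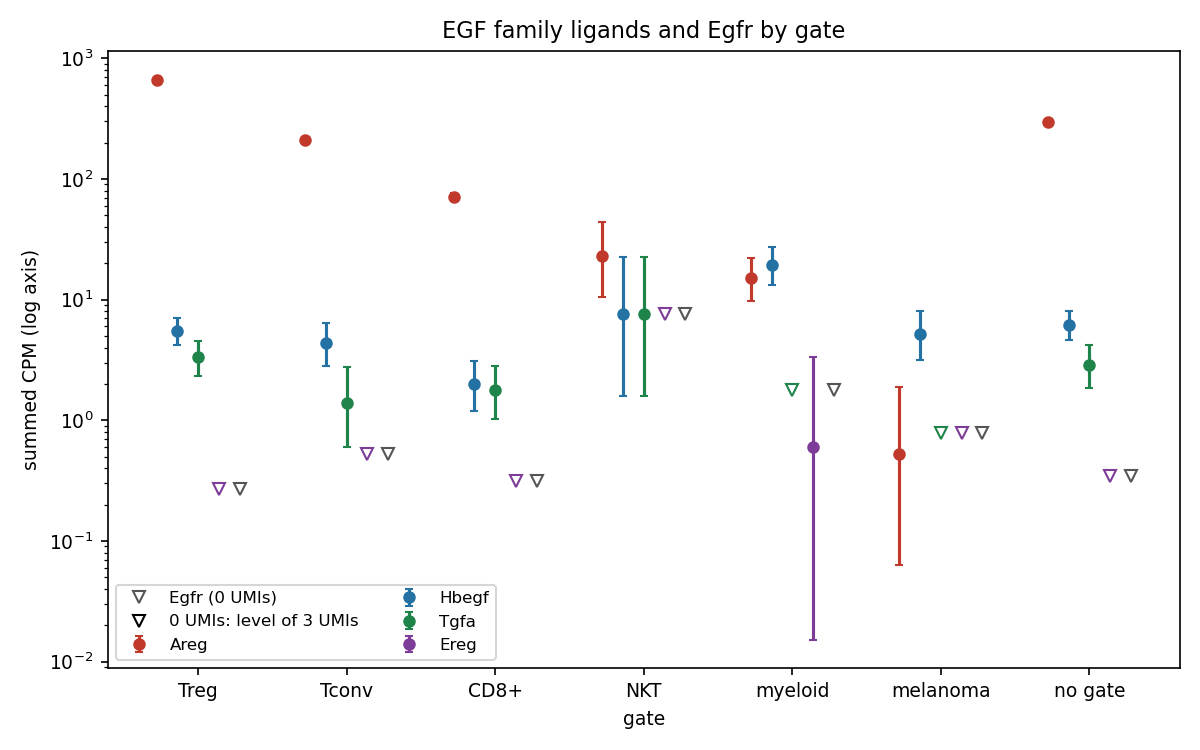
Summed CPM (log axis) of Areg, Hbegf, Tgfa, Ereg and Egfr in each gate and in cells of no gate, with 95% Poisson intervals. Open triangles mark 0 UMIs and stand at the level that 3 UMIs would give. Levels are to be compared within a gene. Areg goes from 660.1 CPM in Treg cells to 0.521 CPM in melanoma cells, while Hbegf has its highest point, 19.2 CPM, in myeloid cells.

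The share of cells with Areg followed the same order in the T cell gates. Areg UMIs were found in 865 Treg cells (30.5%, 28.8 to 32.3), 238 Tconv cells (13.1%), 129 CD8+ T cells (8.39%), 7 NKT cells (7.87%), 12 myeloid cells (6.56%) and 1 melanoma cell (1.06%). After each cell was thinned to 1500 UMIs, which left out 454 Treg, 322 Tconv and 109 CD8+ cells that were shallower, the shares were 23.4% (21.7 to 25.1) of Treg cells, 8.25% of Tconv cells, 3.78% of CD8+ T cells, 3.45% of NKT cells and 2.91% of myeloid cells. None of 94 thinned melanoma cells had an Areg UMI, which allows a share of up to 3.19%. Before thinning, the share in melanoma cells, which should lack the gene, was 1.06% at a median of 43351 UMIs. Among 2203 barcodes with under 200 genes, which were left out, 3.04% held Areg at a median of 145 UMIs, and their summed level of 209 CPM (163 to 264) was as high as that of Tconv cells. The part of free RNA in the levels and shares of the gates was not tested. The thinned shares of NKT and myeloid cells rest on 3 and 5 cells, with intervals of 0.717 to 9.75% and 0.950 to 6.65%, and no order can be read from them.

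Areg was spread unevenly over Treg cells. Among the 865 positive Treg cells the mean was 8.52 UMIs, the median 3 and the highest 93. A single UMI was found in 284 cells, and 228 cells (8.05% of Treg cells) had 10 or more. Those 228 cells held 76.5% of the Areg UMIs of the gate, and 95 cells (3.35%) held the upper 50 percent of them. The variance of Areg UMIs per Treg cell was 25.1 times their mean of 2.60, where 1 is the value of evenly spread counts. Cells thus varied in Areg by more than the counting intervals cover. Hbegf had 1.60 and Tgfa 0.987, at means of 0.0215 and 0.0131 UMIs per Treg cell. Means this low hold the value near 1, so the evenness of the 3 ligands cannot be compared by it. Tconv cells had 5.02 UMIs per positive cell, with 33 cells at 10 or more, and CD8+ T cells had 5.26, with 18 such cells. One CD8+ T cell held 81 of the 679 UMIs of that gate, and without it the CD8+ level was 62.5 CPM. One myeloid cell held 11 of 25, and without it the myeloid level was 8.47 CPM. NKT cells had at most 2 Areg UMIs.

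**Figure D2:**
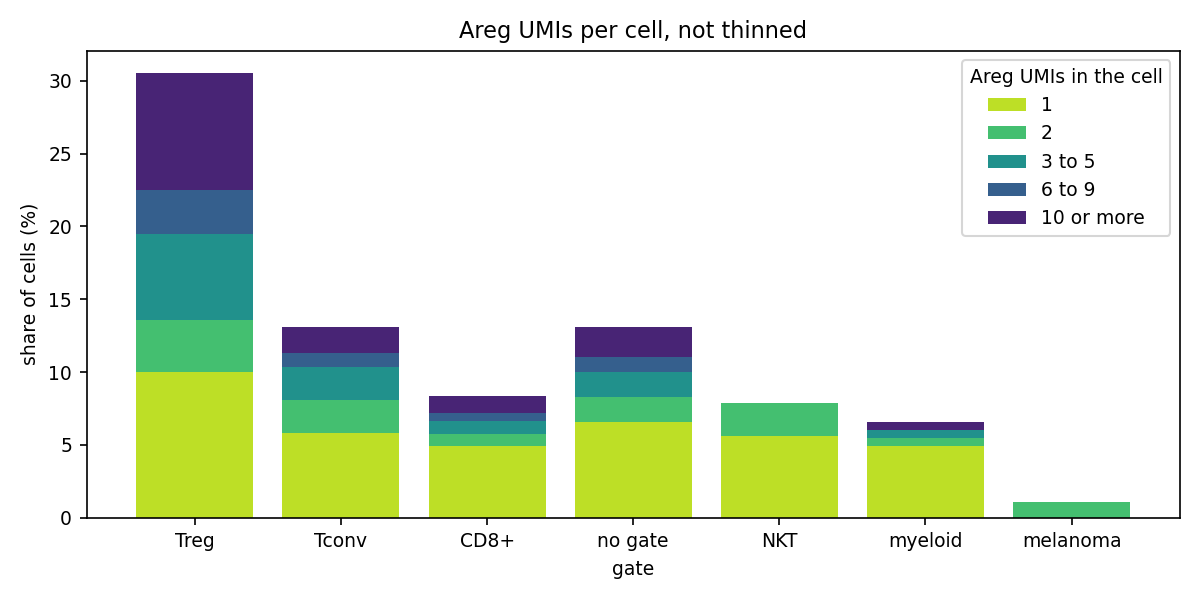
Share of cells (%) with Areg UMIs in each gate, before thinning, with each bar split by the number of Areg UMIs in the cell. The section of 10 or more UMIs is 8.05% of Treg cells, 1.82% of Tconv cells and 1.17% of CD8+ T cells, and it is absent in NKT and melanoma cells.

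The level of Areg was not even across depth. In 4 equal classes of Treg cells from shallow to deep, with medians of 1347.5, 2383.5, 3632.5 and 6810 UMIs, Areg was 1156, 1103, 883 and 359 CPM. UMIs per positive cell were 6.21, 8.45, 10.8 and 8.21. The deepest class thus had the lowest level per UMI without a lower share of positive cells, which was 36.5% there and 23.9% in the shallowest class. In Tconv cells the classes had 631, 271, 141 and 137 CPM, and in CD8+ T cells 46.9, 106, 99.6 and 54.5 CPM. Without the deepest class of each gate, a choice made after the data were seen, the ratio of Treg to Tconv cells was 3.58 and that of Treg to CD8+ T cells 10.8.

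Outside the Treg gate, Areg was higher in cells that held UMIs of certain genes of Treg or other CD4+ cells. Tconv cells with a UMI of Il2ra (the IL-2 receptor α chain) or Ikzf2 (the transcription factor Helios), which are high in Treg cells, had 382 CPM in 725 cells, and Tconv cells without them had 79.4 CPM in 1088 cells. The ratio was 4.82 (4.19 to 5.55), and 0.459% of 7623 genes were at least 4-fold higher in the former. CD8+ T cells that also held a Foxp3 or Cd4 UMI had 210.3 CPM in 192 cells, and the others had 42.4 CPM in 1346 cells. That ratio was 4.96 (4.26 to 5.79), and 0.0926% of 8635 genes were at least 4-fold higher. In cells of no gate, those with Il2ra or Ikzf2 had 529.7 CPM in 1433 cells and those without had 57.8 CPM in 1933 cells, a ratio of 9.16 (8.04 to 10.5), with 0.757% of 8716 genes at least 4-fold higher. The same split of Treg cells gave 701 CPM in 2514 cells and 159 CPM in 319 cells, a ratio of 4.42, with 2.22% of 9118 genes at least 4-fold higher. The split by Il2ra and Ikzf2 thus divided Areg in all 3 of these groups. Against Tconv cells without Il2ra and Ikzf2, the ratio of Treg cells was 8.31 (7.35 to 9.44), and against CD8+ T cells without Foxp3 and Cd4 it was 15.6 (13.96 to 17.4). Both were chosen after the data were seen, and the part of missed Foxp3 UMIs or joined cells in these values was not tested.

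**Figure D3:**
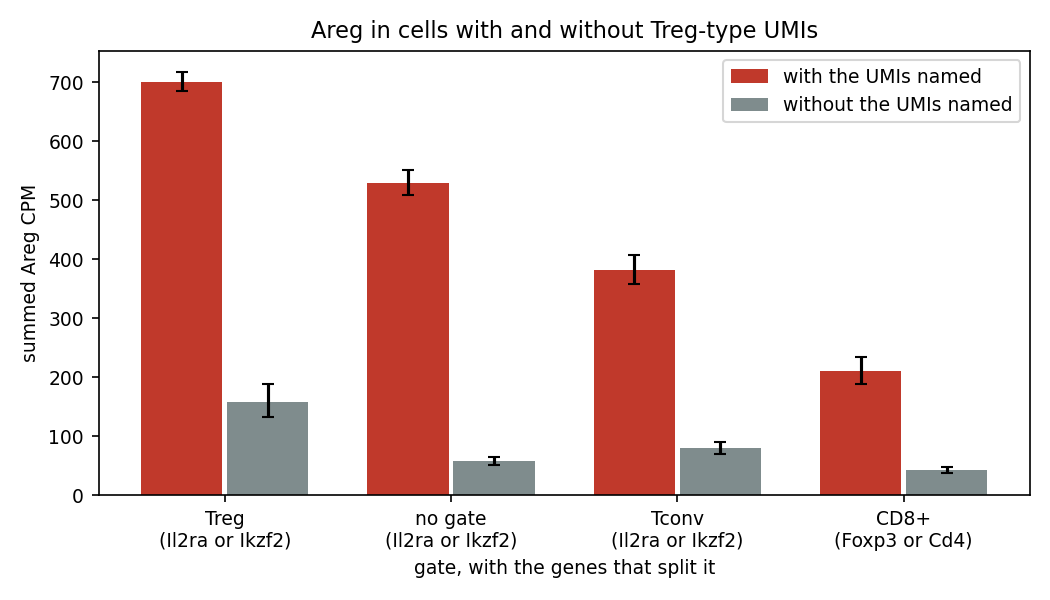
Summed Areg CPM with 95% Poisson intervals in cells of 4 groups, split by whether the cell held UMIs of the genes named under each pair. In each pair the cells with these UMIs stand higher, from 210.3 against 42.4 CPM in CD8+ T cells to 701 against 159 CPM in Treg cells.

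In 15 groups of cells that did not overlap, Areg varied within each T cell lineage. Treg cells with an Il1rl1 UMI stood at 1309 CPM, other Treg cells at 687 CPM, cycling Treg cells (Mki67 or Top2a) at 388 CPM and Treg cells with Tcf7 or Ccr7, genes of naive and central cells, at 315 CPM. Among Tconv cells the values were 51.4 CPM with Tcf7 or Ccr7, 219 CPM in cycling cells and 416 CPM in the rest. CD8+ T cells showed 35.7, 99.3 and 55.7 CPM in the same order. The cells with Tcf7 or Ccr7 were the lowest in each of the 3 lineages, and they were far lower in Tconv than in Treg cells. Myeloid cells with at least 3 UMIs of the C1q genes, which macrophages express, had 5.62 CPM and those with Ly6c2, Ccr2 or Plac8, genes of monocytes, had 33.4 CPM from 17 UMIs, 11 of them in the cell named above.

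The genes whose pattern over these 15 groups was most like that of Areg were Tnfrsf4 (OX40, Pearson r 0.968), Neb (r 0.961) and Wnk1 (r 0.956). They were found among 10104 genes on log2(CPM + 10) values, and the groups share 1 library. Unlike Areg, none of the 3 was higher in Treg cells with Il1rl1 than in other Treg cells. Neb had 69.4 against 107 CPM and Wnk1 450 against 565 CPM. Tnfrsf4 had 1545 against 1578 CPM, a small difference for which no interval was computed.

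**Figure D4:**
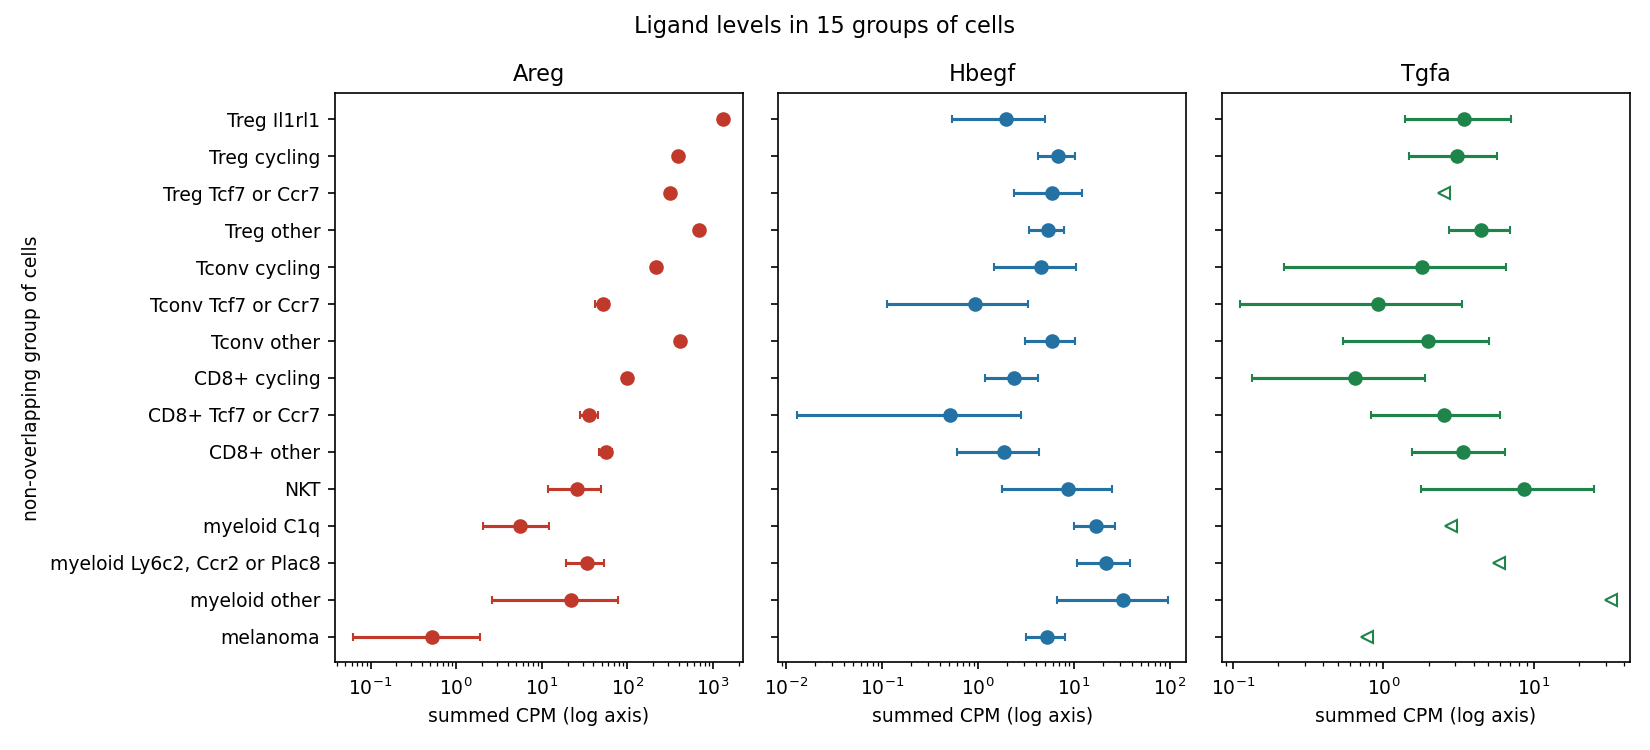
Summed CPM (log axes) of Areg, Hbegf and Tgfa in 15 groups of cells that do not overlap, with 95% Poisson intervals. Open triangles mark 0 UMIs and stand at the level of 3 UMIs. Areg spans 1309 CPM in Treg cells with Il1rl1 to 0.521 CPM in melanoma cells, and the 3 highest Hbegf points are those of the myeloid groups.

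Il1rl1 encodes the IL-33 receptor chain ST2. Areg stood at 1293 CPM (1244 to 1343) in 539 Treg cells with an Il1rl1 UMI and at 517 CPM (502 to 532) in 2294 Treg cells without one, a ratio of 2.50 (2.38 to 2.62). Of 9118 genes, 0.812% were at least 2-fold higher in the former, and the ratio of Areg was number 27. The share of Areg-positive cells was 43.8% against 27.4%, and 34.6% against 21.2% after thinning. With 1, 2 and 3 or more Il1rl1 UMIs, Areg was 1323, 1413 and 1119 CPM, against 517 CPM with none. All 3 positive classes were above the cells with none, and the level was lower with 3 or more UMIs (1031 to 1212) than with 2 (1313 to 1518). Cells without an Il1rl1 UMI still held 4708 of the 7368 Areg UMIs of the gate and the cell with the most, 93. The other ligands did not share the pattern. Hbegf was 1.94 CPM with Il1rl1 (4 UMIs) and 6.26 CPM without, a ratio of 0.311 (0.0818 to 0.840), and Tgfa had a ratio of 1.03 (0.383 to 2.40).

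The hashtags gave a tumor for a minority of cells, since the 4 tags held 1730 UMIs in the whole hashtag library, with 898 cells tagged B16 and 149 tagged B16–IL-33 among the 9844. For 86.5% of tagged B16 and 96.5% of tagged B16–IL-33 Treg cells the call rests on 1 tag UMI. Areg in Treg cells was 331 CPM for tag 1 and 246 CPM for tag 2 of B16, and 1030.5 CPM for tag 1 and 1497 CPM for tag 2 of B16–IL-33. Both B16–IL-33 tags stood above both B16 tags, with intervals that did not overlap between tumors. The B16–IL-33 tags also differed from each other beyond counting error (811 to 1292 against 1295 to 1722). Summed by tumor, 57 B16–IL-33 Treg cells had 1331 CPM from 271 UMIs and 281 B16 Treg cells had 267 CPM from 391 UMIs, a ratio of 4.99 (4.26 to 5.84). Only 0.172% of 4073 genes were at least 4-fold higher in B16–IL-33 Treg cells, and Areg was number 5. Without the cell with the most Areg UMIs on each side the ratio was 4.85 (4.05 to 5.80). Areg-positive cells made up 42.1% (29.1 to 55.9) of B16–IL-33 and 28.8% (23.6 to 34.5) of B16 Treg cells, with 11.3 and 4.83 UMIs per positive cell, so that the share of positive cells overlapped within its intervals while the UMIs per positive cell were further apart. Median depth was 2643 UMIs in the former and 3753 UMIs in the latter.

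The summed level of Areg was not higher with Il1rl1 within either tagged tumor. In B16–IL-33 Treg cells Areg was 1200 CPM in 14 cells with Il1rl1 and 1369 CPM in 43 cells without, a ratio of 0.876 (0.640 to 1.18). In B16 Treg cells it was 212 CPM in 14 cells with Il1rl1, from 15 UMIs, and 269 CPM in 267 cells without, a ratio of 0.786 (0.436 to 1.31). Both intervals lie below the pooled ratio of 2.50, but they cover counting error only, and each side with Il1rl1 had 14 cells. Areg varied between Treg cells by more than counting error, so no departure from 2.50 can be read from these intervals. The cell with the most Areg UMIs held 65 in B16–IL-33 and 74 in B16 Treg cells, more than all cells with Il1rl1 there together. Both of these cells were thus without Il1rl1, and the ratios without them were not computed. The share of positive cells gave another picture in B16–IL-33 Treg cells, where 10 of 14 cells with Il1rl1 (71.4%) and 14 of 43 without (32.6%) held Areg. In B16 Treg cells these were 4 of 14 (28.6%) and 77 of 267 (28.8%). The difference between tumors was present both with Il1rl1 (ratio 5.66, 3.15 to 10.8) and without it (5.08, 4.28 to 6.02). Cells with Il1rl1 made up 24.6% of B16–IL-33 and 4.98% of B16 Treg cells. Among Treg cells without a usable tag, whose tumor is not known, the ratio by Il1rl1 was 2.45 (2.33 to 2.57), from 511 cells with Il1rl1 and 1984 without. The pooled difference by Il1rl1 and the mixture of tumors in the pool cannot be told apart in the untagged cells.

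**Figure D5:**
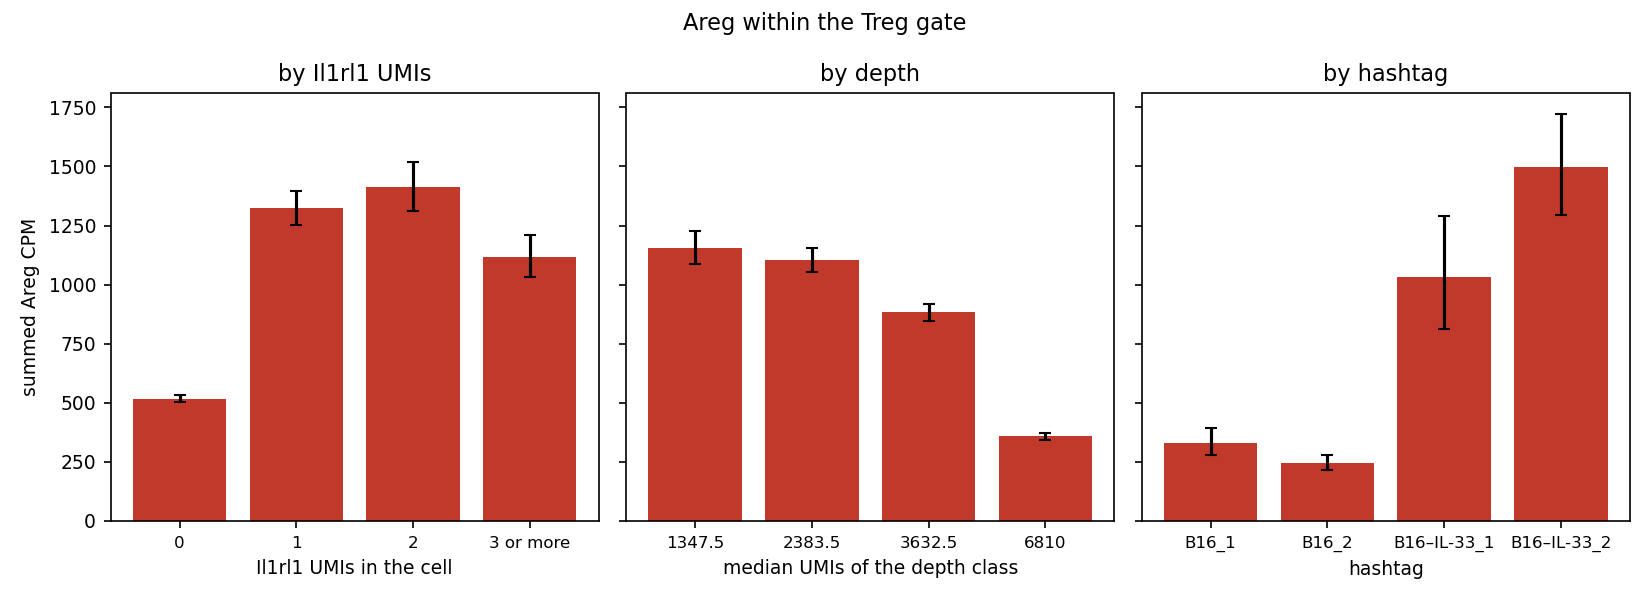
Summed Areg CPM in Treg cells with 95% Poisson intervals, by the number of Il1rl1 UMIs in the cell (left), by class of sequencing depth (middle) and by hashtag (right). Areg is 517 CPM without Il1rl1 and above 1100 CPM in each of the other 3 classes. It is 359 CPM in the deepest class, and both B16–IL-33 tags stand above both B16 tags.

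In the other gates the tags held few Areg UMIs. Tconv cells had 585 CPM in 17 B16–IL-33 cells (26 UMIs) and 73.0 CPM in 170 B16 cells (38 UMIs), a ratio of 8.01 (4.67 to 13.5), which became 4.25 (1.85 to 8.98) without the cell with the most UMIs on each side. CD8+ T cells had 17.6 CPM in 21 B16–IL-33 cells (2 UMIs) and 29.0 CPM in 142 B16 cells (30 UMIs), a ratio of 0.607 (0.0703 to 2.39). Cells of no gate had 1233 CPM in 53 B16–IL-33 cells and 69.3 CPM in 278 B16 cells, a ratio of 17.8 (13.4 to 23.9). Hbegf in Treg cells had 1 UMI in B16–IL-33 and 10 UMIs in B16 cells, and Tgfa 1 and 5 UMIs, too few to compare.

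The TCR table gave a second readout of the same cells. Treg cells of clones with at least 2 cells in the gate (127 cells, 60 clones, none above 4 cells) had 504 CPM of Areg and Treg cells of single-cell clones (1770 cells) had 592 CPM, a ratio of 0.851 (0.755 to 0.955). Il1rl1 was found in 7.87% of the former and 17.5% of the latter. Tconv cells of expanded clones had 40.5 CPM from 9 UMIs against 193 CPM in single-cell clones, a ratio of 0.210 (0.0957 to 0.401). In CD8+ T cells, where the largest clone had 14 cells, the values were 67.0 and 74.5 CPM with a ratio of 0.900 (0.744 to 1.08). Cells with an invariant NKT alpha chain, 66 in all, had 39.7 CPM (19.0 to 73.0). Treg cells for which a productive beta chain was found had 541 CPM and those without one had 923 CPM, although their shares of Areg-positive cells were 31.2% and 29.6%.

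Treg cells with at least 10 Areg UMIs (228 cells) were set beside Treg cells with none (1968 cells). The genes in this paragraph were chosen after their values were seen. Il13, a type 2 cytokine, had a ratio of 12.9 but was found in 1.32% and 0.356% of cells, with 24 UMIs in 1 cell. Il17a, the cytokine of type 17 cells, had a ratio of 4.49 and was found in 5.26% and 1.52% of cells. Among Treg markers, Il2ra had a ratio of 1.96 (1.79 to 2.13), Ctla4 1.68 (1.59 to 1.78), Tnfrsf4 1.55 (1.48 to 1.64) and Foxp3 1.13 (1.04 to 1.23). Il1rl1 and Klrg1, genes of tissue Treg cells, and Sdc4 had ratios of 2.11, 1.71 and 1.53, and the naive cell transcription factor Tcf7 had 0.418 (0.245 to 0.669). The early response genes Fos (0.927, 0.838 to 1.02) and Jun (0.912, 0.807 to 1.03) had intervals that held 1, while Junb had 1.41. The cells high in Areg thus had more of the activated Treg genes and less Tcf7, without more Fos or Jun. Median depth was 3316.5 UMIs in the Areg-high cells and 2849.5 UMIs in the others.

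Hbegf (ENSMUSG00000024486), with 202 UMIs in all kept cells, had its highest level per UMI in myeloid cells, although Treg cells held more of its UMIs. Its level was 19.2 CPM in myeloid cells (13.1 to 27.1, 32 UMIs in 16 cells), 7.65 CPM in NKT cells, 5.46 CPM in Treg cells (4.18 to 7.02), 5.21 CPM in melanoma cells (3.18 to 8.05), 4.37 CPM in Tconv cells (2.83 to 6.45) and 1.98 CPM in CD8+ T cells (1.19 to 3.097). The NKT value came from 3 UMIs in 1 cell that was also a Tconv cell. Treg cells held 30.2% of the Hbegf UMIs, cells of no gate 26.7%, myeloid cells 15.8% and Tconv cells 12.4%. Among neighbours in this order, the ratio from Tconv to CD8+ T cells was 2.20 (1.17 to 4.23) and no other interval excluded 1, that of myeloid over NKT cells included (2.47, 0.773 to 12.6). Myeloid cells had 4.43 times the Hbegf of Tconv cells (2.54 to 7.79). This ratio was 7.96 with at most 2500 genes per cell, 7.19 with gates from at least 2 UMIs and 6.88 where CD3 UMIs were required in T cell gates and barred in the myeloid gate. It was 4.98 against Treg, Tconv and CD8+ T cells together (3.24 to 7.47). In the latter comparison 6.27% of 10790 genes were at least 4-fold higher in myeloid cells, and Hbegf was number 595. Areg had a ratio of 0.0425 (0.0275 to 0.0628) there, where 13% of genes were at least 4-fold lower in myeloid cells.

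Myeloid cells without UMIs of Cd3d, Cd3g or Trac (122 cells) had 27.1 CPM of Hbegf and the 61 with them had 5.02 CPM, from 3 UMIs. Myeloid cells with C1q had 16.8 CPM (9.98 to 26.6), those with Ly6c2, Ccr2 or Plac8 had 21.6 CPM (10.8 to 38.7), and their intervals overlapped. Cells of no gate and without CD3 UMIs had 25.3 CPM (15.01 to 40.03), close to the myeloid level. After thinning, Hbegf was found in 4.07% of myeloid cells (1.65 to 8.21, 8.74% before thinning), 1.06% of melanoma cells, 0.604% of Tconv cells, 0.546% of Treg cells and 0.210% of CD8+ T cells. In melanoma cells the 20 UMIs lay in 19 of 94 cells (20.2%, before thinning), at most 2 in a cell, and the variance over the mean was 0.887. In myeloid cells the 32 UMIs lay in 16 cells, up to 5 in a cell, and it was 2.70. At a mean of 0.213 UMIs per melanoma cell, a variance over the mean near 1 says little about evenness. The melanoma UMIs thus lay nearly always 1 in a cell, and the myeloid UMIs did not. The genes most like Hbegf over the 15 groups were Sdc1 (syndecan 1, r 0.946), Eaf1 (r 0.924) and Rassf4 (r 0.923), all highest in a myeloid group, where the group with the highest level for Sdc1 and Eaf1 had 15 cells.

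Tgfa had 90 UMIs in 87 cells, nearly always 1 in a cell. The level was 3.31 CPM in Treg cells (2.33 to 4.57), 1.77 CPM in CD8+ T cells (1.03 to 2.84), 1.40 CPM in Tconv cells (0.604 to 2.76) and 7.65 CPM in NKT cells (1.58 to 22.4, 3 UMIs in 3 cells). Treg cells had 2.37 times the level of Tconv cells (1.09 to 5.89) and 1.87 times that of CD8+ T cells (1.03 to 3.54). Tgfa was listed at 0 UMIs in myeloid and melanoma cells, where 3 UMIs would give 1.80 and 0.782 CPM. The Treg level was 4.14 times this level in melanoma cells and 1.75 times that in myeloid cells. The lower ends of the ratio intervals were 3.20 for Treg over melanoma cells and 1.36 for Treg over myeloid cells. After thinning, 12 of 2379 Treg cells (0.504%) and 9 of 1429 CD8+ T cells (0.630%) held a UMI, and no order among the T cell gates can be read from these shares. Tgfa was thus found in T cells and not detected in the deepest cells of the pool.

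Ereg had 1 UMI, in 1 myeloid cell. In Treg, Tconv and CD8+ T cells it had 0 UMIs, which allows up to 0.269, 0.524 and 0.313 CPM. Egfr had 0 UMIs in all 9844 cells, which allows up to 0.0748 CPM over the pool, 0.269 CPM in Treg cells and 0.782 CPM in melanoma cells. The limit in myeloid cells was 1.80 CPM and in NKT cells 7.65 CPM, so that low levels in these small groups could not be seen. The receptor of Areg was thus not detected in any cell type of this sort. Of the 7 fibroblast genes, Pdgfra had 0 UMIs as well, Dcn had 1, Lum 2 and Pdgfrb 10. Col1a1, Col1a2 and Col3a1 had 42, 42 and 47 UMIs. Of the keratinocyte genes, Krt5 and Krt14 had 0 UMIs and Krt10 had 206.

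Cells with Hbegf or Tgfa were few, and some of them also held Areg. Of 50 Treg cells with Hbegf, 18 (36%) also had Areg, against 30.5% of all Treg cells, and of 37 Treg cells with Tgfa, 9 (24.3%) did. No Treg cell held both Hbegf and Tgfa. Over all cells, 37 of 162 cells with Hbegf (22.8%) and 19 of 87 cells with Tgfa (21.8%) also held Areg, against 17.1% of all cells, and 1 cell held Hbegf and Tgfa.

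Among the other ligands of the family, Egf, Btc, Epgn and the neuregulin genes Nrg1 to Nrg4, which signal through ErbB3 and ErbB4, none of 7 reached 50 UMIs, and Nrg3 had 0. Nrg1 had 34 UMIs, of which 17 were in 13 myeloid cells (10.2 CPM, 5.93 to 16.3), against 0.191 CPM in the Treg, Tconv and CD8+ T cells that were not also in the myeloid gate, a ratio of 53.4 (18.9 to 185). Nrg4 had 44 UMIs without a gate that stood out, at 1.08 CPM in Treg cells and 1.15 CPM in CD8+ T cells. Among the other receptors, Erbb3 was 18.5 CPM in melanoma cells (14.5 to 23.3) and 3.25 CPM in the T cells, a ratio of 5.69 (4.09 to 7.90). Erbb3 was 5.20 CPM in Treg, 3.67 CPM in Tconv and 1.67 CPM in CD8+ T cells. Erbb2, the partner of Erbb3 in signaling, had 15 UMIs, of which 13 lay in 13 melanoma cells (3.39 CPM, 1.80 to 5.79) and 0 in 2833 Treg cells. Erbb4 had 0 UMIs. Melanoma cells thus held transcripts of ErbB2 and ErbB3 and none of EGFR at this depth.

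Of 5 genes that act in the shedding of the ligands, 4 reached 50 UMIs in Treg and Tconv cells, and 0 of them differed 2-fold, where 4.26% of all genes were at least 2-fold higher and 2.98% at least 2-fold lower. Their median ratio was 1.04, as was the 1.04 of all genes. Adam17, the main protease of Areg, was 53.9 CPM in Treg cells and 36.5 CPM in Tconv cells, a ratio of 1.48 (1.26 to 1.74), and 54.5 CPM in myeloid cells. The iRhom genes, whose products bring ADAM17 to the cell surface, divided by cell type. Rhbdf2 was 29.9 CPM in myeloid cells and 10.6 CPM in T cells, a ratio of 2.83 (2.05 to 3.83). Rhbdf1 was 21.4 CPM in melanoma cells and 0.271 CPM in T cells, a ratio of 78.9 (36.6 to 202), with 82 of its 92 UMIs in melanoma cells. Between myeloid and T cells 12.1% of all genes were at least 2-fold higher and 27.8% at least 2-fold lower, and of 4 shedding genes measured 1 was higher and 1, Frmd8, lower. Between melanoma and T cells these shares were 24.5% and 26.5%, and of 5 shedding genes 1 was higher and 2 were lower.

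Of 9 genes of EGFR signal transfer and feedback, 8 were measured in Treg and Tconv cells. None was 2-fold higher in Treg cells and 1 was 2-fold lower, Dusp6, an ERK phosphatase, at 7.61 against 16.4 CPM (ratio 0.463, 0.341 to 0.628). Of all genes, 4.26% were at least 2-fold higher and 2.98% at least 2-fold lower. Errfi1, a feedback inhibitor of EGFR, was 23.9 CPM in Treg and 14.3 CPM in Tconv cells, a ratio of 1.67 (1.30 to 2.16), and Lrig1 had a ratio of 0.580 (0.413 to 0.816). Their median ratio was 0.906 against 1.04 for all genes. In myeloid cells 2 of the 9 were at least 2-fold higher than in T cells, Errfi1 (53.9 CPM, ratio 2.48) and Dusp6 (45.5 CPM, ratio 3.45), and 2 were lower, Lrig1 with 0 UMIs and Spry2 with 1 UMI, whose interval held 1 (0.00642 to 1.49). There 12.1% of all genes were at least 2-fold higher and 27.8% at least 2-fold lower. In melanoma cells Dusp6 was 40.1 CPM (ratio 3.11) and Spry2 6.52 CPM (ratio 2.95), while 4 of the 9 were at least 2-fold lower. For melanoma over T cells the shares of all genes were 24.5% higher and 26.5% lower. The 2 higher genes of 9 are near the former share and the 4 lower genes are above the latter, and 9 genes are too few to read a difference from. Myeloid and melanoma cells thus shared a higher Dusp6, and Errfi1 was high in the myeloid cells alone of these 2. In Treg cells high in Areg, Errfi1 had a ratio of 0.891 (0.516 to 1.45) to Treg cells without Areg. There Dusp6 had 0.240 (0.0285 to 0.899), from 2 UMIs in the high cells, while the intervals of Lrig1, Spry1 and Spry2 held 1. In Tconv cells with at least 10 Areg UMIs, Errfi1 had a ratio of 4.99 (1.76 to 11.5), from 6 UMIs, and the intervals of the other 4 genes held 1.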

How the data were processed

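The sample was 1 pool of sorted tumor T cells. The authors deposited raw UMI counts per gene and barcode, made with Cell Ranger on a joint human and mouse (mm10) reference. The submitters' processing notes name version 6.1.1 and the file header 3.1.0. Hashtag counts, of which 99.99% matched no tag and were left out, and a TCR contig table were deposited with them. No columns of the authors' own comparisons were used.

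Mouse genes of barcodes with at least 200 detected genes and under 5% mitochondrial UMIs were kept, without an upper limit on genes and without a doublet caller. Counts were summed over the cells of a gate and divided by all mouse UMIs there (CPM). Cells in both gates of a ratio were left out of it. Intervals at 95% are exact Poisson (CPM), Clopper-Pearson (shares) and conditional binomial (ratios), and cover counting error only. A count of 0 was set against 3 counts. Ratios were ranked among genes with at least 50 UMIs, and percentages of genes past a fold are descriptions, not tests. On simulated data for Treg over Tconv cells (9922 genes, 200 changed), the interval held the true ratio for 96% of changed genes. The simulated sums were Poisson counts, which the interval itself assumes, so this checks the calculation alone. It does not cover the variation between cells, where the variance of Areg was 25.1 times the mean in Treg and 17.0 times in Tconv cells. The named genes were the 5 members, the 3 genes most like each member with at least 100 UMIs over the groups, and lists of other ligands, receptors, shedding and signal genes. Members and lists were chosen with earlier results of these data known. Settings for cell filters, gates, thinning and single cells were varied. Positions are from GENCODE vM21, with IDs matched for 30934 of 31053 genes, and promoter letters from RefSeq. Python 3.11.15, NumPy 2.4.6, SciPy 1.17.1, pandas 2.3.3 and matplotlib 3.10.9 were used. Other libraries of the study were not analysed here.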

Additional observations from a re-analysis of the deposited data

Results flagged for a closer look

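Areg was also found in cells and barcodes that no comparison between gates used, and the part of free RNA in these values was not tested. The 3366 cells of no gate had 295 CPM (284 to 307, from 2586 UMIs), 1.41 times the level of Tconv cells, where a count of 0 allows up to 0.342 CPM. Of these cells, 88.1% held CD3 UMIs.

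The 1988 barcodes with at least 200 genes and at least 5% mitochondrial UMIs, which were left out, had 425 CPM of Areg (401 to 449, from 1269 UMIs), with Areg in 14.3% of them at a median of 942.5 UMIs. Hbegf stood at 9.70 CPM (6.50 to 13.9) there. The 2203 barcodes with under 200 genes, also left out, had 209 CPM of Areg (163 to 264, from 71 UMIs), with Areg in 3.04% of them at a median of 145 UMIs. Hbegf had 0 UMIs there.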

How the results depend on the processing

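Of 68 alternative settings over 7 values, 46 stayed within the value's counting interval, 22 moved beyond it and 0 reversed the direction. The ratio of Areg in Treg over Tconv cells (3.16) was 3.62 with at most 2500 genes per cell, 2.89 with a mitochondrial limit of 10% and 2.96 as a mean of each cell's own CPM. Among settings chosen after seeing the data, it was 8.31 against Tconv cells without Il2ra or Ikzf2 UMIs and 3.58 without the deepest class of depth. The ratio of Areg in Treg over CD8+ T cells (9.31) was 10.3 with at most 2500 genes, 10.4 without barcodes of 2 or more beta chains, 7.46 with a beta chain required, 10.4 without the top cell of each gate and 11.7 as a mean over cells. Of those chosen after seeing the data, it was 15.6 against CD8+ T cells without Foxp3 or Cd4 and 10.8 without the deepest class of depth. Hbegf in myeloid over Tconv cells (4.43) was 7.96 with at most 2500 genes, 7.19 with gates from at least 2 UMIs and 6.88 with CD3 UMIs required in T cell gates and barred in the myeloid gate, the last 2 within its interval. The thinned share of Areg-positive Treg cells (23.4%) was 25.3% with at most 2500 genes, 25.3% with gates from at least 2 UMIs, 20.3% at 1000 UMIs and 30.5% without thinning. UMIs per positive Treg cell (8.52) were 8.26 with the 10% limit, 9.24 with gates from 2 UMIs, 8.72 without barcodes of 2 or more beta chains and 8.22 with a beta chain required. The Il1rl1 ratio (2.50) was 2.22 with gates from 2 UMIs. The 9 alternatives for NKT over Tconv cells gave 0.0977 to 0.145. The cause of these moves was not tested. No paired analysis was possible because the libraries are different assays of 1 pool and the values come from no test. The number of cells limits the values of NKT (89), myeloid (183) and B16–IL-33-tagged Treg cells (57).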

Other observations

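Tconv cells with at least 10 Areg UMIs (33 cells) were set beside Tconv cells with none (1575 cells), in genes of lists chosen with results known. Il2ra had a ratio of 6.32 (4.62 to 8.47), Ctla4 4.37 (3.66 to 5.18), Tnfrsf4 3.91 (3.31 to 4.60) and Il1rl1 11.5 (7.10 to 17.8). Tcf7 had 0 UMIs in the 33 cells and 1271 UMIs in the 1575. Fos (0.770, 0.579 to 1.01) and Jun (0.843, 0.609 to 1.14) had intervals that held 1. Across all kept cells, Areg was found in 400 of 952 cells with an Il1rl1 UMI (42.0%) and in 17.1% of all cells.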
